A study of Mus musculus with 4 samples.

Results

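The genes described here are 35 genes of the lysosome: the acid hydrolases that break down glycans, sulfated polysaccharides, lipids and peptides, the activator proteins that some of these enzymes need, membrane proteins of the lysosome, the transcription factor Tfeb, and subunits of the vacuolar proton pump. They were named as a list and found by gene symbol in the deposited expression table. All 35 were present among 24473 genes with FPKM values and 55401 genes with counts, and all 35 passed the filter on low counts that left 15733 genes for testing.

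RNA was sequenced from BV-2, a mouse cell line derived from microglia, the resident macrophages of the brain. There were 2 control libraries, given the genotype WT and the titles sh c1 and sh c2, and 2 libraries with the genotype SIX2 knockdown, titled sh s1 and sh s2. Cells of both groups had received lipopolysaccharide (LPS), a bacterial cell wall component, at 100 ng/mL for 24 h, and both groups carry the sh prefix, so neither group stands for resting cells and the WT label may not mean cells without a hairpin. SIX2 is a homeobox transcription factor, and the comparison asks which transcripts differ when it is knocked down under LPS. How the knockdown was made, how many clones it came from and whether the libraries of a group were separate cultures is not given in the labels used here, so the p-values reflect library-to-library spread alone, and that spread may be technical.

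Lysosomes digest what microglia take up by phagocytosis and what autophagy delivers from inside the cell. Their hydrolases work at acid pH, which the vacuolar proton pump sustains: its V1 sector, in the cytosol, splits ATP, and its V0 sector, in the membrane, passes protons through a rotating ring. Many genes of this organelle are known targets of Tfeb, which binds an E-box in their promoters, and the inherited loss of single hydrolases or activators causes storage diseases.

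The libraries held 61.0 to 75.7 M counts, or 15.2 to 18.9 M fragments at about 4 counts per fragment, and the 35 genes made up 0.725% to 0.753% of them. No count fell on Six2 in any library of either group, with a value of 0 that allows up to 12 counts, or 0.157 to 0.194 CPM (counts per 1 M of the TMM-scaled library), so the knockdown could not be checked on its own transcript. Of 12 microglia and macrophage markers 11 were tested and 3 fell (Adgre1, Csf1r and Aif1), with a summed level of 1814 and 1841 CPM in control and 1677 and 1608 CPM in knockdown libraries. P2ry12, a marker of resting microglia, had 24, 4, 0 and 0 counts. Traces of other cell types moved with the groups as well. The 4 oligodendrocyte markers summed to 15.1 and 14.3 CPM in control and 8.37 and 0.316 CPM in knockdown libraries, the 5 neuron markers to 6.14 and 5.63 against 3.19 and 0 CPM, all 5 being at 0 in knockdown replicate 2, and the 4 astrocyte markers to 4.52 and 3.17 against 2.03 and 0.711 CPM. Fibroblast, endothelial and epithelial markers stayed between 0 and 1.44 CPM in sum. The part of these shifts in the lysosomal results was not tested, and in bulk RNA fewer cells of a type and less RNA per cell cannot be told apart.

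Most of the 35 genes did not differ between the groups beyond the test's threshold, and those that passed went in opposite directions. Atp6v0c, the gene of the ring subunit of the proton pump, rose 1.61-fold, and Gm2a, the gene of the activator that presents GM2 ganglioside to its hydrolase, fell 1.61-fold (adjusted p = 0.0299 and 0.0381, edgeR's quasi-likelihood test with Benjamini-Hochberg adjustment over all genes). The remaining 33 did not pass. A total of 2 of 35 (5.71%) passing compares with 0.953% of all tested genes, 0.407% higher and 0.547% lower, and with 1.45% of the 8906 tested genes averaging 10 CPM or more, a level that 32 of the 35 reached. At an unadjusted p under 0.05 there were 2 higher and 7 lower, 25.7% of the 35, against 14.2% of all tested genes (7.52% higher and 6.7% lower) and 18.2% of the better-expressed ones (11% higher and 7.14% lower). The median log2 fold change, knockdown minus control, was -0.023 for the 35 genes and -0.0061 for all tested genes, with 17 of the 35 values above 0 and 18 below. Control and knockdown libraries stood apart without overlap in 19 of the 35 (54.3%), 6 higher and 13 lower, against 47.6% of all tested genes and 51.3% of those with at least 10 CPM.

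**Figure D1:**
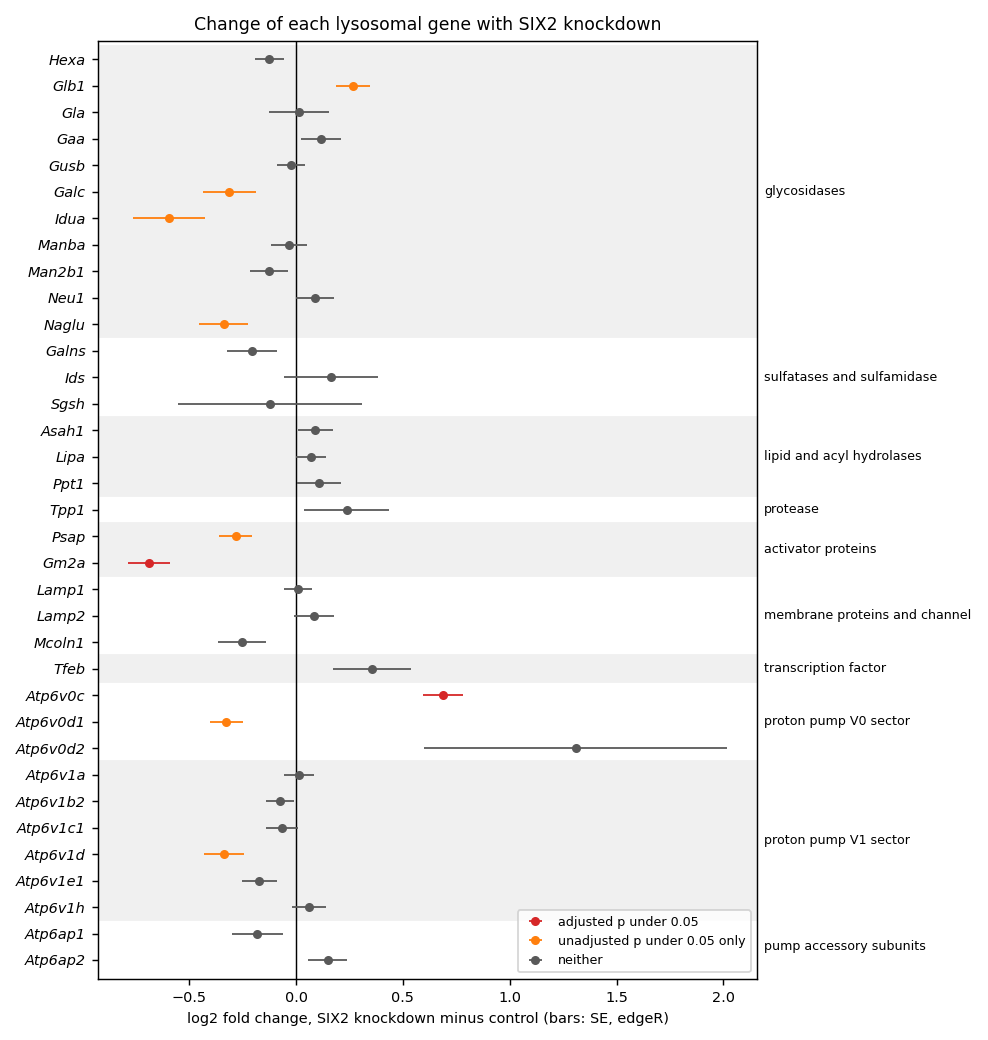
Log2 fold change (SIX2 knockdown minus control, x axis) of each of the 35 lysosomal genes, grouped by role, with bars of 1 SE derived from edgeR's test. Atp6v0c lies at 0.69 and Gm2a at -0.69, in red as the only genes past an adjusted p of 0.05. The 7 in orange reached an unadjusted p of 0.05 alone, and Atp6v0d2, at 1.31, has the widest bar.

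Levels between genes were compared on the deposited FPKM scale, which divides by gene length. They spanned more than 3 orders of magnitude, from 414 FPKM for Psap, the precursor of the saposins, to 0.240 FPKM for Atp6v0d2, averaged over the 4 libraries. Psap was followed by Lamp1, a major glycoprotein of the lysosomal membrane (219 FPKM), Atp6v0c (198 FPKM), Atp6v0d1 (107 FPKM), Hexa (105 FPKM), Atp6v1b2 (102 FPKM) and Gusb (97.4 FPKM). At the other end, Sgsh, the sulfamidase that acts on heparan sulfate, had 0.441 FPKM, and Ids, the iduronate sulfatase, 1.21 FPKM. The 18 hydrolases summed to 484 and 487 FPKM in control and 479 and 473 FPKM in knockdown libraries. The 11 pump genes summed to 630 and 642 FPKM against 670 and 678 FPKM, higher in both knockdown libraries, and this sum contains Atp6v0c. On the FPKM scale knockdown libraries ran slightly lower than in edgeR. Lamp1 had a log2 FPKM ratio of -0.027 against an edgeR log2 fold change of 0.0079, and Gusb -0.058 against -0.023. Group differences in these FPKM sums, and in those below, carry this offset and were not tested.

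**Figure D2:**
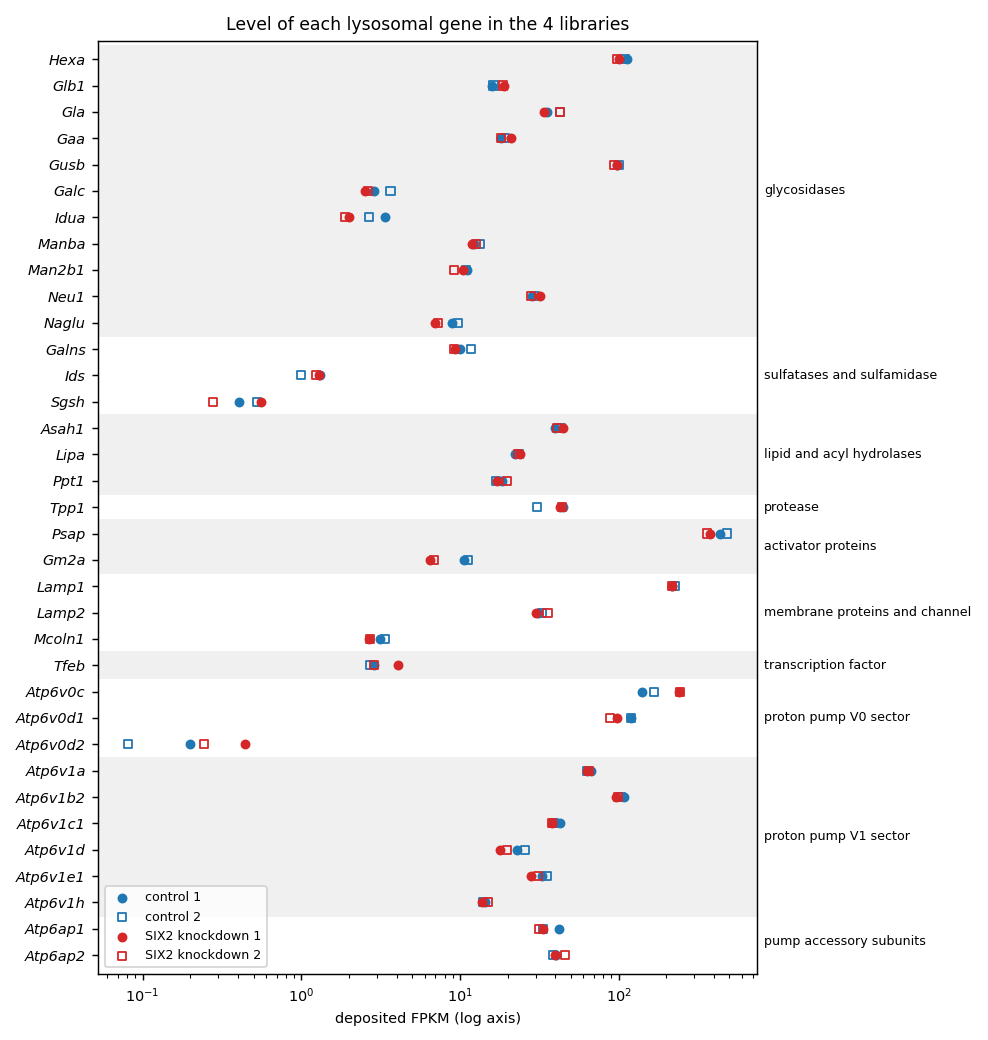
Deposited FPKM (x axis, log scale) of the 35 lysosomal genes in each of the 4 libraries, grouped by role, with circles for replicate 1 and squares for replicate 2. For most genes the libraries lie close together over a range from 0.240 to 414 FPKM in gene means, and the groups stand visibly apart for Gm2a and Atp6v0c.

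The activator proteins are small cofactors that lift lipids out of membranes for the soluble hydrolases, and both were lower in the knockdown libraries. Gm2a (ENSMUSG00000000594, chromosome 11, 55098115 to 55113029, plus strand, GRCm38) had 3717 and 3161 counts in control and 2229 and 2018 counts in knockdown libraries, or 48.7 and 51.1 CPM against 30.1 and 31.9 CPM. Both knockdown libraries lay well below both controls. The log2 fold change was -0.69 ± 0.10 (SE, adjusted p = 0.0381, edgeR), and it lay between -0.73 and -0.65 when any 1 library was left out. Psap (chromosome 10, 60277627 to 60302597, plus strand) had 1316 and 1456 CPM in control and 1162 and 1115 CPM in knockdown libraries. Here too the groups did not overlap, but the difference of -0.28 ± 0.08 did not pass (adjusted p = 0.180, edgeR), though it did by DESeq2 (adjusted p = 0.0287). The ratio of Gm2a to Hexa, the alpha subunit of the hexosaminidase that Gm2a serves, was 0.0946 and 0.103 in control and 0.0643 and 0.0695 in knockdown libraries on the FPKM scale. Hexa itself had 249 and 240 CPM against 226 and 222 CPM, lower in both knockdown libraries and not past the threshold (log2 fold change -0.13 ± 0.07, adjusted p = 0.473, edgeR).

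The V0 sector of the pump held the gene with the lowest p-value of the 35. Atp6v0c (ENSMUSG00000024121, chromosome 17, 24163866 to 24169702, minus strand) had 40087 and 38466 counts in control and 67881 and 58948 counts in knockdown libraries, or 526 and 622 CPM against 917 and 931 CPM. Its control libraries differed from each other by less than either differed from a knockdown library. The log2 fold change was 0.69 ± 0.09 (SE, adjusted p = 0.0299, edgeR), and without any 1 library it lay between 0.57 and 0.82. Atp6v0d1, which couples the ring to the central stalk, went the other way, with 237 and 235 CPM in control and 198 and 179 CPM in knockdown libraries. This difference of -0.33 ± 0.08 did not pass over all genes (adjusted p = 0.134, edgeR). The FPKM ratio of Atp6v0c to Atp6v0d1 was 1.17 and 1.40 in control and 2.46 and 2.76 in knockdown libraries, 2.03 times higher on average. Atp6v0d2, the paralogue of Atp6v0d1 that is prominent in osteoclasts, was close to absent: it had 46 and 15 counts in control and 100 and 48 counts in knockdown libraries, about 4 counts to a fragment. Replicates differed by over 2-fold in the control group, and the log2 fold change of 1.31 ± 0.71 did not pass (adjusted p = 0.474, edgeR). It was 2.11 without control replicate 1, 0.81 without control replicate 2, 0.83 without knockdown replicate 1 and 1.67 without knockdown replicate 2. Atp6v0d1 exceeded it 224 to 1476 times in single libraries on the FPKM scale.

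The calls on Atp6v0c and Gm2a depended on the way of fitting. Of 16 other ways of fitting, leaving aside a block with crossed replicate numbers, Atp6v0c passed in 8 and Gm2a in 7, and both kept their direction in all 16. Without edgeR's robust option the adjusted p was 0.0907 for Atp6v0c and 0.0835 for Gm2a, with limma-voom 0.0556 and 0.0645, and with limma on log2(FPKM + 1) 0.199 and 0.153. With DESeq2 it was 2.01e-08 and 2.43e-06. Leaving out control replicate 2 kept the call on Atp6v0c (0.0422), and leaving out control replicate 1, knockdown replicate 1 or knockdown replicate 2 lost it (0.0822, 0.102 and 0.184). Gm2a lost its call without any 1 of the 4 libraries (0.113 to 0.190).

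**Figure D3:**
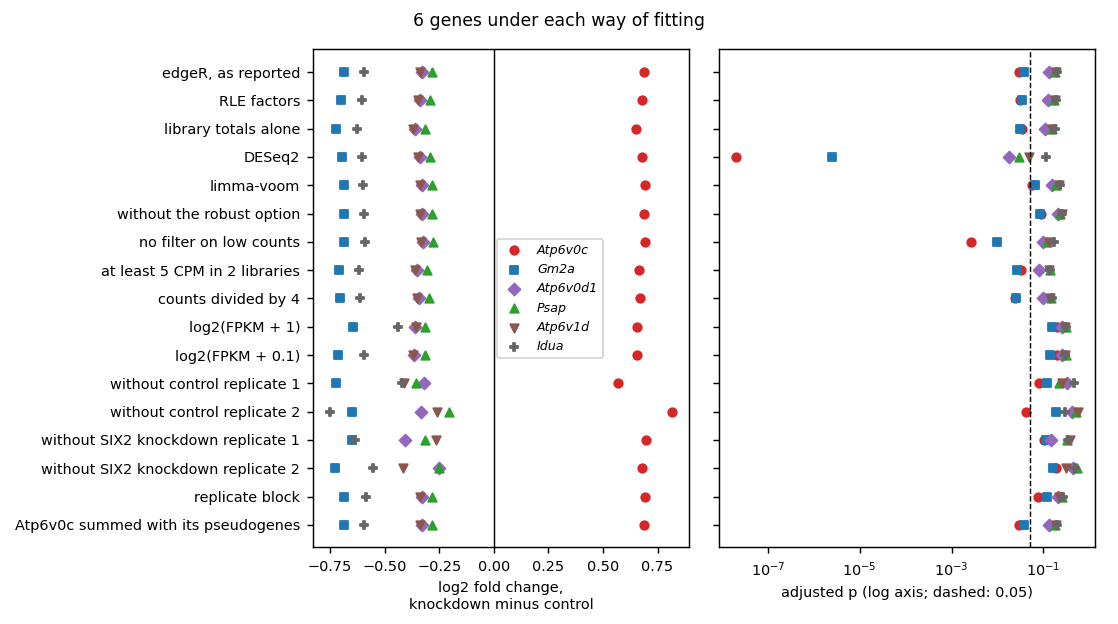
Log2 fold change (left) and adjusted p (right, log axis, dashed line at 0.05) of 6 lysosomal genes under edgeR as reported and 16 other ways of fitting. The left panel shows Atp6v0c between 0.57 and 0.82 and Gm2a between -0.73 and -0.65 throughout, while the right panel shows their adjusted p on either side of 0.05.

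Atp6v0c has near-identical copies, so where its reads were placed was looked at. Its processed pseudogene Atp6v0c-ps2 (chromosome 6, 37806086 to 37806550) matched it at 99.8% over 465 bases and held 183, 99, 243 and 190 counts, 0.257% to 0.456% of the counts of Atp6v0c. Atp6v0c-ps1 on chromosome 7 matched at 97.2% and held 3 to 14 counts. With the 3 genes summed, a check added after the data were seen, the log2 fold change of Atp6v0c was 0.69. Neither Atp6v0c nor Gm2a shares exon bases with another gene model, unlike 9 of the 35 genes.

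The V1 sector and the accessory subunits did not follow Atp6v0c. Atp6v1a and Atp6v1b2 encode the catalytic and regulatory subunits that bind ATP. Atp6v1a had 446 and 417 CPM in control and 427 and 443 CPM in knockdown libraries, and Atp6v1b2 631 and 603 against 575 and 595 CPM. The former overlapped between groups with a log2 fold change of 0.012 ± 0.070, and the latter was lower in both knockdown libraries by a small amount (-0.08 ± 0.07). Atp6v1d, a part of the central rotor, had 117 and 130 CPM in control and 92.3 and 103 CPM in knockdown libraries, the largest difference of the sector (-0.34 ± 0.09, unadjusted p = 0.00893 and adjusted p = 0.185, edgeR). Atp6v1e1, of the peripheral stalk, had 150 and 158 against 129 and 144 CPM, without overlap, and did not pass (adjusted p = 0.426, edgeR). Atp6v1c1 (-0.07 ± 0.07) and Atp6v1h (0.06 ± 0.08), subunits that link and regulate the sectors, overlapped between groups. Atp6v1h had the lowest level of the sector, 14.3 FPKM, and 155 and 148 CPM against 152 and 165 CPM. Of the accessory subunits, Atp6ap1 had 141 and 111 CPM in control and 114 and 108 CPM in knockdown libraries, so that control replicate 1 stood above the other 3. Atp6ap2, also known as the prorenin receptor, had 117 and 111 against 118 and 135 CPM. Neither passed (adjusted p = 0.574 and 0.537, edgeR).

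Across the pump, 1 of 11 genes passed and rose, 0 fell by edgeR, and at an unadjusted p under 0.05 there were 1 higher and 2 lower. Of all tested genes 0.953% passed, and 7.52% were higher and 6.7% lower at that unadjusted p. By DESeq2, Atp6v0d1 and Atp6v1d were also called, both lower (adjusted p = 0.0178 and 0.0497). The 10 pump genes other than Atp6v0c summed to 490 and 474 FPKM in control and 429 and 434 FPKM in knockdown libraries, with 6 of the 10 log2 fold changes below 0. The ratio of Atp6v0c to this sum was 0.287 and 0.355 in control and 0.562 and 0.561 in knockdown libraries. Control libraries differed from each other more than the knockdown libraries did, and the groups stood apart.

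**Figure D4:**
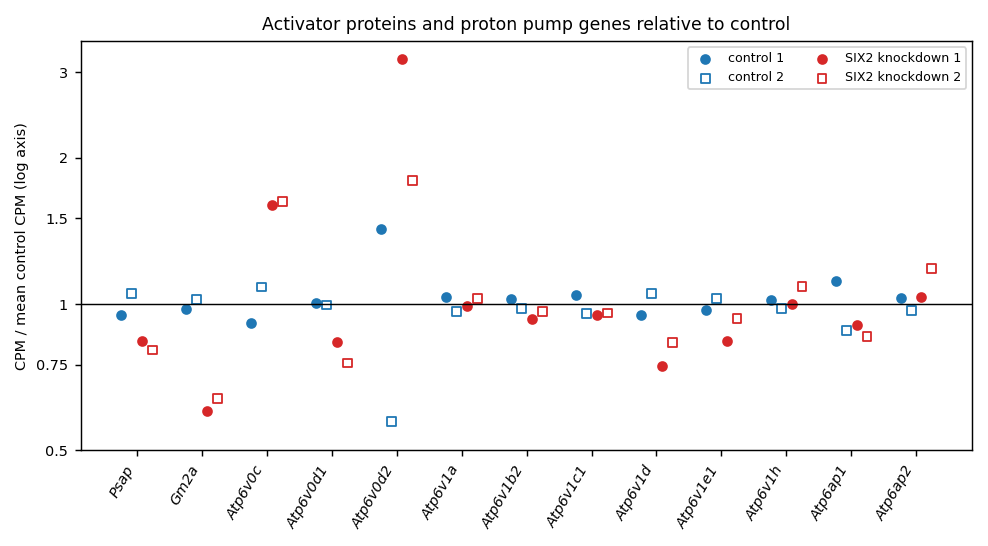
CPM of the activator genes and the 11 proton pump genes in each library, divided by the gene's mean in the control libraries (y axis, log scale), with circles for replicate 1 and squares for replicate 2. Both knockdown libraries lie above the controls for Atp6v0c, Atp6v0d2 and Atp6ap2, the last by a narrow margin. They lie below the controls for Gm2a, Psap, Atp6v0d1, Atp6v1d, Atp6v1e1 and Atp6v1b2. The 4 libraries of Atp6v0d2, at under 1.36 CPM, scatter most.

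The glycosidases, which trim sugars from glycoproteins, glycolipids and polysaccharides, numbered 11, and 0 passed by edgeR or DESeq2. An unadjusted p under 0.05 in edgeR was reached by 1 in the higher and 3 in the lower direction, against 7.52% and 6.7% of all tested genes. Their summed level was 347 and 359 FPKM in control and 338 and 334 FPKM in knockdown libraries. Glb1, the beta-galactosidase, had 53.0 and 53.6 CPM in control and 64.5 and 63.7 CPM in knockdown libraries. Its replicates agreed closely and the groups did not overlap, yet the log2 fold change of 0.27 ± 0.08 did not pass (adjusted p = 0.218, edgeR). It shares 165 exon bases, 5.49% of its own, with Tmppe on the same strand. Idua, the iduronidase of dermatan and heparan sulfate breakdown, had 15.6 and 12.4 CPM in control and 9.51 and 9.00 CPM in knockdown libraries. With a log2 fold change of -0.60 ± 0.17 it differed nearly as much as Gm2a, at a lower level (2.48 FPKM) and with a wider spread (adjusted p = 0.194, edgeR). It shares 124 and 141 exon bases with Dgkq and Slc26a1 on the opposite strand, and no source used here says if reads were counted by strand.

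Naglu, another enzyme of heparan sulfate breakdown, had 26.2 and 28.2 CPM in control and 21.0 and 21.97 CPM in knockdown libraries. Galc, which removes galactose from the myelin lipid galactosylceramide, had 47.6 and 59.5 against 42.1 and 44.0 CPM. Both were lower in both knockdown libraries without passing (adjusted p = 0.258 and 0.321, edgeR). Man2b1, an alpha-mannosidase, was lower without overlap as well (98.6 and 95.4 against 93.9 and 83.5 CPM), by 0.13 on the log2 scale, less than 2 times its SE of 0.09. Gla, Gaa, Gusb, Manba and Neu1, which act on alpha-galactosides, glycogen, glucuronides, beta-mannosides and sialic acid, overlapped between groups with log2 fold changes from -0.033 to 0.11, and none passed. Gla split by replicate number rather than by group, with 128 and 152 CPM in control and 125 and 158 CPM in knockdown libraries.

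The sulfatases and sulfamidase, which strip sulfate from the same polysaccharides, were low and none of the 3 passed by edgeR, at an adjusted p or at an unadjusted p under 0.05, or by DESeq2. Galns, of keratan sulfate breakdown, had 29.6 and 34.2 CPM in control and 27.7 and 27.5 CPM in knockdown libraries (-0.21 ± 0.12). Ids had 7.46 and 5.53 against 7.40 and 7.14 CPM, and control replicate 2 was the lowest. Sgsh had 151 and 158 counts in control and 205 and 88 counts in knockdown libraries, which differed from each other more than the groups did. Of its exon bases, 21.6% are shared with Card14 on the opposite strand, a gene with 8, 15, 107 and 72 counts.

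The lipid and acyl hydrolases and the protease all had log2 fold changes above 0 and none of the 4 passed in edgeR, adjusted or at an unadjusted p under 0.05, or in DESeq2. Asah1, the acid ceramidase, had 148 and 161 CPM in control and 171 and 158 CPM in knockdown libraries. Lipa, which frees cholesterol and fatty acids from lipoprotein lipids, had 167 and 176 against 182 and 179 CPM, a gap between groups smaller than the difference between the controls. Ppt1, which removes palmitate from proteins, had 75.02 and 68.0 against 71.3 and 82.7 CPM. It shares 129 exon bases, 3.51% of its own, with Cap1 on the opposite strand. Cap1 had 30830 and 23545 counts in control and 31106 and 15338 counts in knockdown libraries. Tpp1, a tripeptidyl peptidase, had 254 and 174 CPM in control and 250 and 255 CPM in knockdown libraries. In Tpp1 control replicate 2 alone stood low: without it the log2 fold change went from 0.24 to -0.0082, and without control replicate 1 it was 0.53.

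Among the membrane proteins Lamp1 was the steadiest of the abundant genes, with 639 and 663 CPM in control and 650 and 659 CPM in knockdown libraries. Its log2 fold change was 0.0079 ± 0.065. Lamp2, its homologue with a part in autophagy, had 327 and 344 against 326 and 385 CPM and overlapped between groups. Mcoln1, the calcium channel TRPML1 through which the lysosome signals, had 26.4 and 28.1 CPM in control and 22.6 and 23.0 CPM in knockdown libraries. It was lower in both knockdown libraries and did not pass (-0.26 ± 0.11, unadjusted p = 0.0579 and adjusted p = 0.375, edgeR). Tfeb had 17.96 and 16.8 CPM in control and 26.0 and 18.4 CPM in knockdown libraries. The groups did not overlap, but knockdown replicate 1 alone stood well above the controls, and the log2 fold change of 0.36 ± 0.18 (adjusted p = 0.446, edgeR) was 0.08 without that library.

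The promoters bear on these genes because Tfeb acts through an E-box, CACGTG, and in its preferred setting through a longer form of it, the 10-base CLEAR element. RefSeq promoter windows on GRCm38.p6, from 250 bases before to 50 after each start, matched 29 of the 35 genes. CACGTG, which reads the same on both strands, was in a window of 9 of the 29 (31.0%), against 8.09% of all genes with a window and 11.8% of the tested genes matched by symbol. The 8-base form TCACGTGA, a part of those matches, was in 4 of the 29 (13.8%), against 1.12% and 2.14%. The 10-base CLEAR element was in 0 of the 29, against 0.370% of all genes with a window and 0.806% of tested ones. By role, CACGTG was found in 4 of 11 matched glycosidases, 2 of 3 membrane protein genes, 1 of 2 V0 genes, 1 of 3 V1 genes and 1 of 2 sulfatase and sulfamidase genes, and in neither activator gene. For the 9 genes with a match the median log2 fold change was 0.0079, with a range from -0.34 to 0.27. For the 20 without one the median was -0.028 and the range ran from -0.69 to 0.69, with Gm2a and Atp6v0c at its ends.

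The sequences are 120 bases around the start, 90 before it and 30 from it on, with CACGTG in capitals, 5′ to 3′ on the gene's own strand. They are given for the genes that passed the test and for 5 genes with matches there. Sgsh, which also has a match there, 29 bases before the start, is not printed. The windows lie at chr17:24169649-24169768 (Atp6v0c, minus strand, the start nearest the 5′ end of the deposited gene), chr11:55097895-55098014 (Gm2a, plus), chr8:105566035-105566154 (Atp6v0d1, minus), chr8:13159071-13159190 (Lamp1, plus), chr8:3500429-3500548 (Mcoln1, plus), chr9:114400988-114401107 (Glb1, plus) and chr11:101070004-101070123 (Naglu, plus).
Atp6v0c: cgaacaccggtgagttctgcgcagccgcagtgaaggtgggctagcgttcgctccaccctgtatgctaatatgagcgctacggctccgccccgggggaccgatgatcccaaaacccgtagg
Gm2a: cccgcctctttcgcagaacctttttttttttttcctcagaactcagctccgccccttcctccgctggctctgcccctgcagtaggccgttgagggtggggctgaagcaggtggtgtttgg
Atp6v0d1: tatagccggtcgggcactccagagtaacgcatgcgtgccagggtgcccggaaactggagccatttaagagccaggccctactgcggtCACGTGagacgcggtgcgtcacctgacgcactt
Lamp1: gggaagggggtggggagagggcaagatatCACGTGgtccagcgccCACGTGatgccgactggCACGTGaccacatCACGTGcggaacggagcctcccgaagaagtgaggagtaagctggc
Mcoln1: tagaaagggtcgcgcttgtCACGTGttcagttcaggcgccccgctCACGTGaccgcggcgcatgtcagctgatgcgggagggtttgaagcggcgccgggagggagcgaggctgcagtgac
Glb1: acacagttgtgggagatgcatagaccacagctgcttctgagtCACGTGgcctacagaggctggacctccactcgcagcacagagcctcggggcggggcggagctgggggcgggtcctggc
Naglu: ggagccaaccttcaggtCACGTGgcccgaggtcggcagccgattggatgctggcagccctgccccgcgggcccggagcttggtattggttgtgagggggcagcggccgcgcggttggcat

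Lamp1 held 4 matches, beginning 61, 45, 28 and 15 bases before the start, the most among the 29 genes, and its level did not differ between the groups beyond its spread. Mcoln1 held 2, at 71 and 45 bases, Naglu 1 at 73, Glb1 1 at 48 and Atp6v0d1 1 at 3 bases before the start. Of these, Glb1 was the one with a log2 fold change above 0.1, and Atp6v0d1, Naglu and Mcoln1 were below 0. A match is a run of letters and says nothing of binding, and its lack in these windows says nothing of Tfeb elsewhere. The 35 genes lie on 16 chromosomes, with 7 on chromosome 8 and 5 on the X chromosome. In the deposited annotation 28 of them belong to the KEGG lysosome pathway and 10 to oxidative phosphorylation, some to both, and 2, Tfeb and Atp6ap2, to neither.

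For the rest of the organelle, 65 further lysosomal genes were listed, 63 were in the expression table and 61 were tested. By edgeR 0 passed, and the median log2 fold change was -0.050. At an unadjusted p under 0.05 in edgeR there were 6 higher and 6 lower of the 61. Of all tested genes 14.2% reached it, 7.52% higher and 6.7% lower, and of those averaging 10 CPM or more 18.2%. By DESeq2 2 passed, 1 higher (Arsb) and 1 lower, and by limma-voom 0. Arsb, a sulfatase of dermatan and chondroitin sulfate breakdown, had 30.4 and 28.5 CPM in control and 51.1 and 43.3 CPM in knockdown libraries. Its log2 fold change of 0.68 ± 0.12 was as large as that of Atp6v0c and missed the threshold (adjusted p = 0.0668, edgeR). Hgsnat, an acetyltransferase of heparan sulfate breakdown, had 22.3 and 22.8 against 15.6 and 17.5 CPM, and Laptm4a, a lysosomal membrane protein, 110 and 118 against 93.4 and 97.8 CPM.

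Further pump subunits gave no other case like Atp6v0c. Of 14 listed 10 were tested, 0 passed by edgeR, 0 reached an unadjusted p under 0.05 and 0 passed by DESeq2. Atp6v0b, the other ring subunit of the V0 sector, had the most counts of them, a ranking not corrected for length, at 286 ± 18.9 CPM (SD, n = 2) in the controls against 283 ± 11.7 CPM (SD, n = 2) after knockdown. In 3 other groups of the list the genes with the most counts also differed little. Cd68, a membrane glycoprotein of macrophage lysosomes, had 658 ± 11.7 and 641 ± 18.3 CPM, and M6pr, which sorts hydrolases to the lysosome, 231 ± 4.90 and 217 ± 9.46 CPM. Lamtor1, which anchors mTORC1 signalling to the lysosome, had 146 ± 0.170 and 135 ± 9.40 CPM.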

How the data were processed

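The 4 libraries were made from oligo-dT selected RNA with a dUTP strand-marking protocol and sequenced paired-end, per the labels' protocols. The authors deposited estimated counts per Ensembl gene as whole numbers, not normalised, and values that the deposited headers call FPKM. Bowtie 0.12.2 and build mm8 are named per the submitters' processing notes, while for counting no tool is named in the sources used here. Of the deposited coordinates 33 of 35 were identical to GENCODE M21 on GRCm38, so that build is used. From 42.1% to 47.2% of counts from 1 to 20 were multiples of 4, so 1 fragment was taken as 4 counts and the floor as 3 fragments, for counting error only. Another 12 columns match no labelled sample and were not used.

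The test was run with edgeR 4.0.16 under R 4.3.3: filterByExpr, TMM scaling, robust quasi-likelihood fit, two-sided test, Benjamini-Hochberg adjusted p under 0.05 over 15733 genes, no covariate. SE were derived from edgeR's test, as the absolute log2 fold change divided by the square root of its F statistic. DESeq2 1.42.0 and limma 3.58.1 were alternatives, with other scaling, filters, units, left-out libraries and a replicate block. Scripts were tested on simulated data. Replicates of a group differed by a chi-square per degree of freedom of 16.2 and 16.9 in fragments, more than counting error.

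Members and lists were chosen with earlier results of these data known. Values per library are given for genes past the adjusted threshold, genes with an unadjusted p under 0.05 and no overlap between groups, the highest and lowest FPKM of each role, and genes whose replicates differ over 2-fold. Other genes named were chosen after their values were seen. Copies were sought by BLAST at 95% identity over 200 bases. No protein sequence is shown. Some genes of the further lysosomal list are counted but not reported by name here.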

Additional observations from a re-analysis of the deposited data

How the results depend on the processing

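Low depth bears on Atp6v0d2 and Sgsh, and with 2 libraries a group the estimate of spread bears on every call. Genes called numbered 150, with RLE factors 145, library totals 138, a filter of 5 CPM 166 and counts divided by 4 166. They were 680 with DESeq2, 65 with limma-voom, 7 without the robust option, 297 without a filter, 3 with either FPKM scale and 41 to 112 with 1 library left out (62 without control replicate 1, 41 without control replicate 2, 112 without knockdown replicate 1, 42 without knockdown replicate 2). Lysosomal genes called numbered 2, against 5 with DESeq2, 0 with limma-voom, without the robust option and with either FPKM scale, and 0 to 1 with 1 library left out. Other lysosomal genes called were 0, against 2 with DESeq2 and 1 without a filter (Arsb), and 0 with any library left out. The 35 genes' median log2 fold change was -0.023, with RLE factors -0.033, library totals -0.056, the 5 CPM filter -0.045, counts divided by 4 -0.038, log2(FPKM + 1) -0.055, log2(FPKM + 0.1) -0.058, and -0.038 to -0.0086 with 1 library left out. The deviations of same-numbered libraries from their group means correlated across genes at 0.0486 over all tested genes. Over 9982 genes of at least 5 CPM this correlation was -0.185. It changed sign with the cut on level, so it cannot tell whether the numbers pair the libraries. A replicate block left 0 genes and 0 lysosomal genes called by edgeR, with an adjusted p of 0.0771 for Atp6v0c and 0.119 for Gm2a. Crossed numbers, chosen after seeing the data, left 119 and 1 (Atp6v0c), and this fit was used for counts of calls alone. The cause of these differences was not tested.

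Of the 35 genes, 24 kept their sign in every other fit that held them (the 5 CPM filter left 33) and 11 with log2 fold changes up to 0.236 did not. In order of library totals, 5 CPM, counts divided by 4, log2(FPKM + 1) and log2(FPKM + 0.1), Gla was -0.022, -0.011, -0.0042, -0.026 and -0.027, Atp6v1a -0.021, -0.0094, -0.0025, -0.021 and -0.022, and Lamp1 -0.025, -0.014, -0.0070, -0.026 and -0.027. Lamp1 was also -0.0017 with RLE factors and -0.00051 with DESeq2. With 1 library left out, Gla ranged from -0.16 to 0.17, Gusb from -0.049 to 0.0037, Manba from -0.089 to 0.026, Neu1 from -0.015 to 0.18, Ids from -0.035 to 0.39, Sgsh from -0.71 to 0.29, Ppt1 from -0.00083 to 0.21, Tpp1 from -0.0082 to 0.53, Lamp1 from -0.019 to 0.036, Lamp2 from -0.038 to 0.19 and Atp6v1a from -0.034 to 0.061.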
